A study of Homo sapiens with 16 samples.

Results

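The kinesin family was examined in RNA-seq data of YEATS2 knockdown (KD) cells. Kinesins are motor proteins that use ATP to move along microtubules or to take microtubule ends apart. One branch of the family builds the spindle, moves chromosomes and divides the cell, and these genes are transcribed mainly late in the cell cycle, when the cell cycle genes homology region (CHR) and the CCAAT box of their promoters are known to be used by the MuvB complex with B-MYB and FOXM1 and by NF-Y. Another branch carries mitochondria, lysosomes, vesicles and ciliary cargo in cells of every cycle stage.

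H1299 is an established human non-small cell lung cancer line. The cells carried a lentiviral shRNA, either a non-targeting control (shNT, 2 RNA-seq libraries) or one directed at YEATS2 (shYEATS2, 2 libraries). Infection took 48 h in the presence of polybrene (8 µg per ml), and puromycin (2 µg per ml) was then kept on for 4 to 7 days by the sample labels. The methods text gives a shorter selection. Both groups are drug-selected populations rather than clones. The study's text names the shRNA as shY2-1 and calls the duplicates independent biological replicates. Neither it nor the labels say whether they came from separate infections, so p-values measure the spread between these libraries only. By that text both KD libraries carry the same shRNA, so effects of this shRNA other than on YEATS2 cannot be separated here. The study also describes RNA-seq with another YEATS2 shRNA, which is not among these samples.

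Members were the rows of the count table whose symbol begins with KIF or KIFC followed by a digit. There were 35 such rows among 12676 genes. They comprised 34 kinesin genes and KIF9-AS1, an antisense RNA. The kinesin genes fell into 12 mitotic kinesins, 15 transport kinesins and 7 others, which include ciliary, signalling and microtubule-regulating kinesins. All 35 passed the filter of at least 10 reads in at least 2 libraries. Every row of the table reaches at least 101 reads in a library. Kinesins that have no row, KIF2B, KIF4B, KIF6, KIF12, KIF19, KIF21B, KIF25 and KIF26B, were not analysed here.

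The listed genes received between 34718921 and 39417787 reads per library. YEATS2 itself had scaled counts of 4482 and 4104 in the shNT and 665 and 673 in the shYEATS2 libraries, so the labels held in every library (log2 fold change -2.68, standard error 0.10, FDR 0.000583). Scaled counts are reads brought to a common library size with TMM factors. The FDR is the Benjamini-Hochberg adjusted p of the quasi-likelihood test in edgeR, over all 12676 genes, and genes were called at an FDR under 0.01. The log2 scaled counts correlated across genes at 0.995 between the shNT libraries and 0.989 between the shYEATS2 libraries, and at 0.930 to 0.960 between groups. Of the markers looked for, KRT8, KRT18, VIM and CDH2 were listed, EPCAM, CDH1, KRT19 and the lung genes NKX2-1, SFTPB, SFTPC and NAPSA were not, and of 12 markers of blood, endothelial and stromal cells only ACTA2 was listed, at 166 to 170 scaled reads in every library.

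Promoter sequences are shown first because they can be read without the RNA counts and differ between the branches of the family. RefSeq windows of 300 bases, from 250 before to 50 after each annotated start, were searched on both strands for TTTGAA and TTTAAA, the CHR words, and for CCAAT. All 12 mitotic kinesins had a window, as did 11 of the transport and 6 of the other kinesins. A CHR word was present in 11 of the 12 mitotic kinesins, in 2 of the 11 transport kinesins and in 0 of the 6 others, against 27.9% of all 27305 genes with a window and 20.8% of the 9085 of them in the count table. The CCAAT word was present in 10, 4 and 1 of the same groups, against 39.7% of all genes and 43.7% of those in the count table, and both words together in 9 mitotic kinesins, 1 transport kinesin and 12.7% of all genes. Of the listed spindle and cytokinesis genes outside the rule, a CHR word was present in 15 of the 18 with a window (83.3%), CCAAT in 14 and both in 13.

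The lines below give the CHR word nearest to the start of each kinesin that has one, in capitals, with 12 bases on either side where the window allows. They read 5′ to 3′ along the strand of the gene. Sequences are from RefSeq (GRCh38.p14), and positions are those of their exact match in GRCh37. TTCAAA is TTTGAA read on the other strand.
KIFC1 (chr6:33359592-33359621, plus strand): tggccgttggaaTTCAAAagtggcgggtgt
KIF18B (chr17:43025122-43025151, minus strand): ccgcccggctaaTTTGAAcgcaaggcgccg
KIF20A (chr5:137514748-137514777, plus strand): cgcagcgcgtaaTTTAAAatattgtatctg
KIF15 (chr3:44803239-44803268, plus strand): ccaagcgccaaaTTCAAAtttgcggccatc
KIF11 (chr10:94352847-94352876, plus strand): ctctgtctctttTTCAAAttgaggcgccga
KIF14 (chr1:200589861-200589890, minus strand): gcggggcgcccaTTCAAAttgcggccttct
KIF2C (chr1:45205494-45205523, plus strand): ttgcgcgcgggaTTTAAActgcggcggttt
KIF4A (chrX:69509908-69509937, plus strand): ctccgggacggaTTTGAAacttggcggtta
KIF20B (chr10:91461359-91461388, plus strand): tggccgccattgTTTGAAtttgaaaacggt
KIF18A (chr11:28129696-28129725, minus strand): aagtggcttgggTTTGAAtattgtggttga
KIF23 (chr15:69706621-69706650, plus strand): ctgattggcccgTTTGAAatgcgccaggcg
KIF5B (chr10:32345476-32345505, minus strand): agtgcagtaaaaTTTGAAtctgcgaccccg
KIF16B (chr20:16554317-16554343, minus strand): gccgctggcTTTAAAttgctgcgatcc

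In the mitotic kinesins the printed word began between 55 bases before and 25 bases after the start. KIF20B carried 2 adjacent copies of the word, beginning at 25 and 31 bases after the start, and both stand in its line although only one is in capitals. In the transport kinesins KIF5B and KIF16B the word lay at 140 and 241 bases before the start. In a window from 60 bases before to 40 after the start, which was chosen after the positions had been seen, 9.86% of all genes and 0 of the transport kinesins had a CHR word. KIF22 had a CCAAT word at 66 bases before the start and no CHR word in this window. A match is a description of the letters and does not show that a factor binds there.

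**Figure D1:**
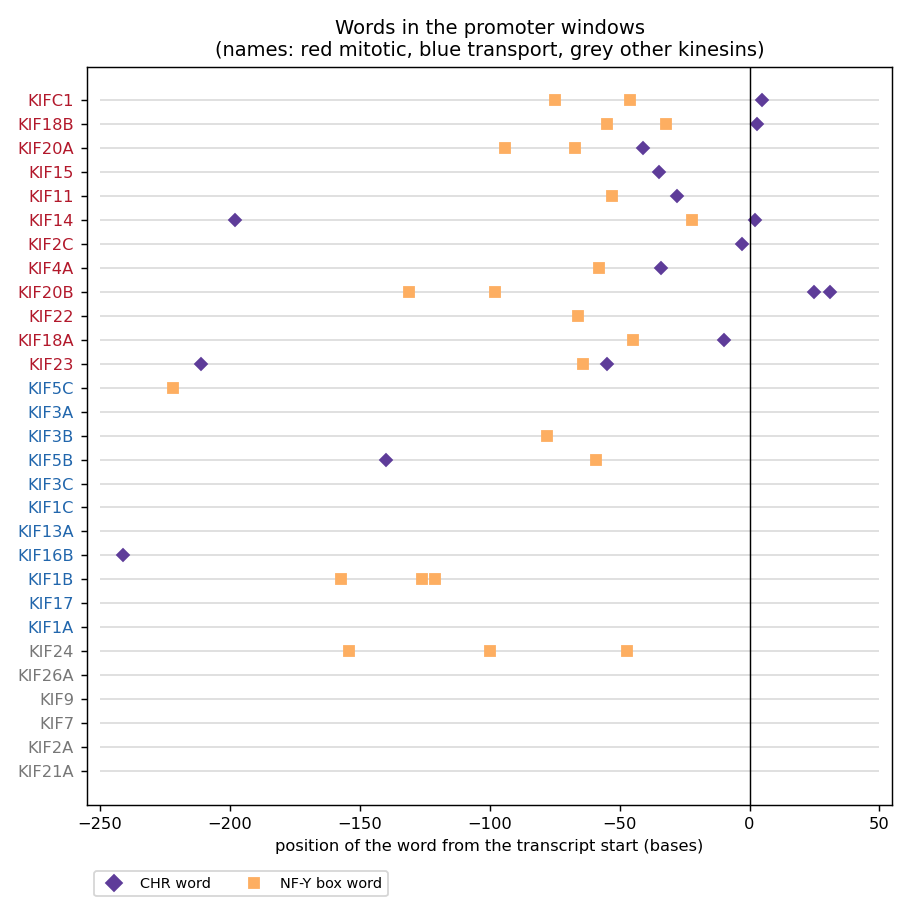
Positions of the CHR words (diamonds) and the NF-Y box words (squares) from 250 bases before to 50 after the transcript start (0) in the RefSeq windows of 29 kinesin genes. In 11 of the 12 mitotic kinesins (red names) a CHR word lies near the start, and in the others only KIF5B and KIF16B have one, far upstream.

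All 12 mitotic kinesins fell in YEATS2 KD cells, to between 38.4% and 56.9% of their level in shNT cells. Of all genes tested, 12.5% were called lower. The median log2 fold change of the 12 was -1.10, with a range from -1.38 for KIFC1 to -0.81 for KIF23, against a median of -0.0019 over all genes. Scaling by total counts moved the median of all genes to 0.12 and that of the 12 to -0.98. Each of the 12 had both KD libraries below both control libraries, which held for 39.8% of all genes. In a bulk sample, fewer cells in division and less RNA of these genes per cell cannot be told apart. The study reports a G1 arrest of YEATS2 KD cells by flow cytometry. The part of that arrest in these values was not tested.

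KIF11, KIF15 and KIFC1 set up the bipolar spindle. KIF11 (Eg5) slides antiparallel microtubules apart, and its scaled counts were 6754 and 6889 in shNT and 3128 and 2694 in shYEATS2 libraries. Both KD values were below both controls, and the log2 fold change was -1.23 (standard error 0.11, FDR 0.000975). KIF15, which can keep a bipolar spindle when KIF11 is inhibited, had 1805 and 2099 against 857 and 742 scaled reads. Its log2 fold change of -1.29 (standard error 0.13, FDR 0.00114) lay within the standard errors of that of KIF11. KIFC1 (HSET), a minus-end-directed motor that focuses spindle poles and clusters extra centrosomes, had 6775 and 6860 against 2695 and 2547 scaled reads. It showed the largest fall of the family, with a log2 fold change of -1.38 (standard error 0.09, FDR 0.000793). The values of KIF18B, KIF20A and KIF15 were within the standard error of KIFC1 from it.

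KIF18A, KIF18B and KIF2C act on microtubule ends. KIF18A dampens the oscillations of chromosomes at the metaphase plate, and its scaled counts were 2193 and 2343 in shNT and 1276 and 1289 in shYEATS2 libraries. The fall was among the smaller ones of the mitotic group (log2 fold change -0.82, standard error 0.09, FDR 0.00146). Its relative KIF18B, which restrains astral microtubules, had 5420 and 5589 against 2424 and 1946 scaled reads. It fell further than KIF18A, with a log2 fold change of -1.33 (standard error 0.13, FDR 0.00107), and no test of the difference between these genes was made. KIF2C (MCAK), which takes apart wrongly attached kinetochore microtubules, had 6846 and 7752 against 3218 and 3670 scaled reads (log2 fold change -1.08, standard error 0.11, FDR 0.00127). KIF2A, a depolymerase of the same subfamily that is also used outside mitosis, had 4198 and 4237 against 4441 and 4318 and was not called (log2 fold change 0.05, standard error 0.09, FDR 0.634).

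The chromokinesins KIF4A and KIF22 bind chromosome arms. KIF4A also limits the length of the central spindle, and its scaled counts were 6674 and 6869 in shNT and 3345 and 3193 in shYEATS2 libraries. The groups were far apart relative to their spread (log2 fold change -1.05, standard error 0.09, FDR 0.000975). Reads of KIF4A can be shared with its near-identical intronless copy KIF4B, so this value is uncertain to that extent. KIF22 (Kid), which pushes chromosomes towards the spindle equator, had 5139 and 5648 against 3086 and 2868 scaled reads (log2 fold change -0.86, standard error 0.10, FDR 0.00156). Its locus is chromosome 16, from 29802048 to 29816706.

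KIF14, KIF20A, KIF20B and KIF23 work at the central spindle and midbody. KIF20A (MKLP2) brings the chromosomal passenger complex to the central spindle, and it had 7108 and 8894 scaled reads in shNT and 2778 and 3613 in shYEATS2 libraries. In both groups its replicates were further apart than those of most mitotic kinesins, and the log2 fold change was -1.32 (standard error 0.16, FDR 0.00174). KIF20B, a relative with a part in abscission, had 3606 and 3889 against 1988 and 1852 (log2 fold change -0.96, standard error 0.10, FDR 0.00123). KIF23 (MKLP1), the motor of the centralspindlin complex, was the most highly counted mitotic kinesin, with 8914 and 10117 against 5336 and 5483 scaled reads. Its fall was the smallest of the 12, with a log2 fold change of -0.81 (standard error 0.10, FDR 0.00181). KIF14, which works with citron kinase in cytokinesis, had 2384 and 2723 against 1149 and 1221 (log2 fold change -1.11, standard error 0.11, FDR 0.00114).

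**Figure D2:**
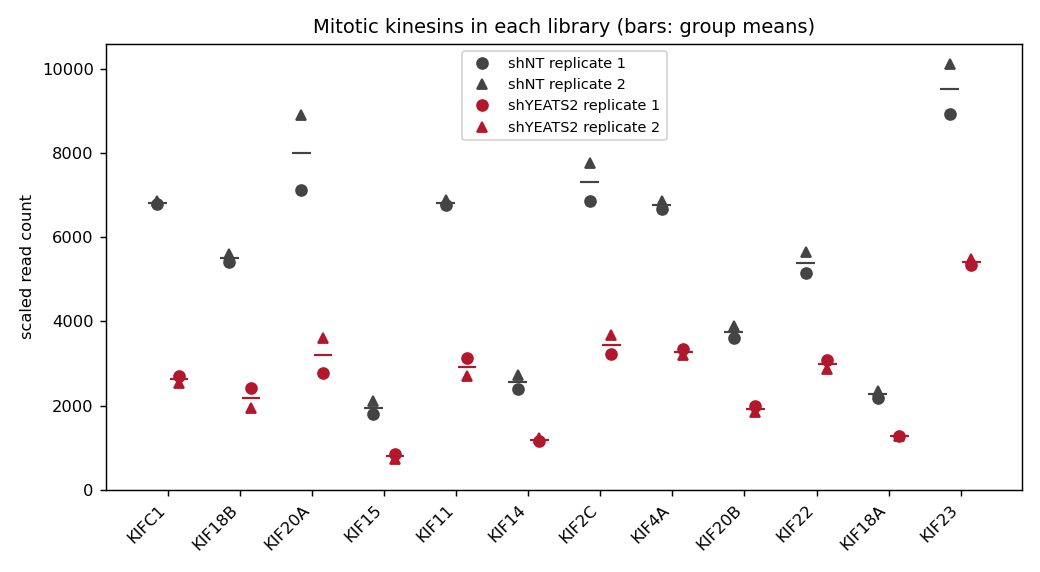
Scaled read counts (vertical axis, from 0) of the 12 mitotic kinesins in each shNT (grey) and shYEATS2 (red) library, with replicate 1 as circles, replicate 2 as triangles and group means as bars. The grey and red points of each gene do not overlap, from 1805 and 2099 against 857 and 742 for KIF15 to 8914 and 10117 against 5336 and 5483 for KIF23.

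The transport kinesins were mostly not called. Of the 15, 2 fell, KIF5C and KIF3A, and 1 rose, KIF1B, beside 12.5% of all genes called lower and 12.9% called higher. The median log2 fold change of the 15 was 0.10, and the medians of the mitotic and transport kinesins differed by -1.19. In the single KD libraries, the median log2 ratio to the shNT mean was -1.14 and -1.07 for the mitotic kinesins and 0.06 and 0.16 for the transport kinesins. Over all alternatives of processing, the difference of the medians ranged from -1.28 to -1.19.

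The KIF5 genes encode the heavy chains of conventional kinesin, which carries mitochondria, vesicles and lysosomes. KIF5B, the ubiquitous heavy chain, was the most highly counted kinesin, with 13185 and 13119 scaled reads in shNT and 13757 and 14164 in shYEATS2 libraries. It was not called (log2 fold change 0.09, standard error 0.09, FDR 0.449). KIF5C, a form best known from neurons, had 1251 and 1629 against 612 and 595. Its log2 fold change of -1.25 (standard error 0.15, FDR 0.00156) lay between those of KIF15 and KIF11, and it lies on chromosome 2 from 149632819 to 149883273. KIF5A, the other neuronal form, had 458 and 548 against 350 and 270 and missed the threshold (log2 fold change -0.70, standard error 0.17, FDR 0.0168), with values below both controls in both KD libraries.

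Among the kinesins of heterotrimeric kinesin-2, which drives transport in cilia, the subunits did not move together. KIF3A had 1405 and 1435 scaled reads in shNT and 932 and 756 in shYEATS2 libraries and fell (log2 fold change -0.75, standard error 0.13, FDR 0.00454), and its FDR was 0.0131 without shNT replicate 1 and 0.0148 without shNT replicate 2. Its partner KIF3B had 7071 and 6671 against 6010 and 5937 (log2 fold change -0.20, FDR 0.106). The alternative partner KIF3C was at 1715 and 1948 against 1987 and 1926, with overlapping groups, and the accessory subunit KIFAP3 was at 901 and 918 against 905 and 947. KIF17, a homodimeric motor of the same group, had 274 and 265 against 404 and 399, which did not overlap but missed the threshold (log2 fold change 0.57, standard error 0.13, FDR 0.0130).

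The kinesin-3 motors among the transport kinesins carry endosomes, lysosomes and secretory vesicles. All of these had a log2 fold change above 0 with TMM scaling, from 0.10 for KIF1C to 0.61 for KIF1A. The mitotic KIF14, also a kinesin-3, fell (-1.11). KIF1B, which moves mitochondria and vesicle precursors, had 4623 and 4591 scaled reads in shNT and 6401 and 6878 in shYEATS2 libraries. It was the only kinesin-3 of the transport list to pass the threshold (log2 fold change 0.53, standard error 0.09, FDR 0.00498). The log2 fold change was 0.53 without shNT replicate 1, 0.52 without shNT replicate 2 and 0.48 without shYEATS2 replicate 2, and in each case the call was lost. KIF13A and KIF13B, motors of the recycling and lysosomal traffic, and the endosomal KIF16B had both KD libraries above both controls, with log2 fold changes of 0.33, 0.43 and 0.41 and FDR values of 0.0225, 0.0276 and 0.0338. Both KD libraries lay above both controls in 39.7% of all genes. KIF1C, a fast motor of vesicles and of some mRNAs, was among the 3 most highly counted transport kinesins, with 8769 and 8043 against 8587 and 9377 and overlapping groups. KIF1A had 47.3 and 148 against 95.3 and 201 scaled reads, and its log2 fold change of 0.61 (standard error 0.54, FDR 0.378) went to -0.03 without shYEATS2 replicate 2. The minus-end-directed KIFC2 and KIFC3 were not called, with log2 fold changes of -0.39 (FDR 0.0486) and 0.39 (FDR 0.0369).

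**Figure D3:**
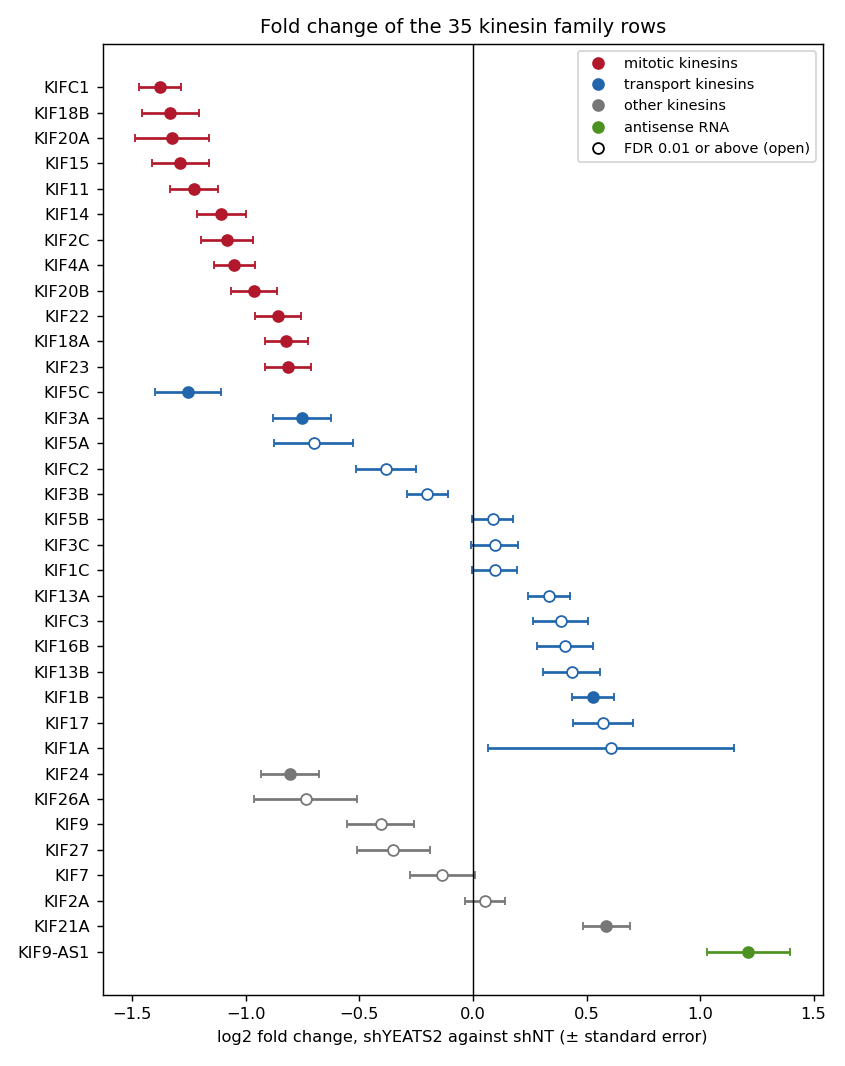
Log2 fold change of shYEATS2 against shNT (horizontal axis, bars are standard errors) for the 35 rows of the kinesin family, with filled points for an FDR under 0.01. All 12 mitotic kinesins lie between -1.38 and -0.81, whereas the transport kinesins spread from -1.25 to 0.61 and most are open.

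Of the 7 other kinesins, 1 fell and 1 rose, 14.3% in each direction and near the 12.5% and 12.9% of all genes, with a median log2 fold change of -0.35. KIF24, which removes microtubule ends at the mother centriole and holds back cilium formation, had 1302 and 1217 scaled reads in shNT and 788 and 653 in shYEATS2 libraries (log2 fold change -0.81, standard error 0.13, FDR 0.00364). Without shNT replicate 1 the FDR of KIF24 was 0.0139. KIF21A, which pauses microtubule growth at the cell cortex, had 6263 and 5738 against 9476 and 8549 and rose (log2 fold change 0.59, standard error 0.10, FDR 0.00499), with an FDR of 0.0179 without shNT replicate 1 and 0.0370 without shNT replicate 2. KIF7, a regulator of Hedgehog signalling at the cilium tip, KIF27 and KIF9 were at log2 fold changes of -0.14, -0.35 and -0.41 and were not called. KIF26A, an atypical kinesin without motor activity, had only 183 and 207 against 96.3 and 137 scaled reads (log2 fold change -0.74, FDR 0.0348).

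KIF9-AS1, the antisense RNA at the KIF9 locus, rose from 141 and 135 to 282 and 356 scaled reads (log2 fold change 1.21, standard error 0.18, FDR 0.00316), and its FDR was 0.0109 without shNT replicate 2. It shares 870 exon bases with KIF9 on the opposite strand in the current annotation. The library kit did not mark strand, so reads from the shared part cannot be assigned to KIF9 or KIF9-AS1. In the same way KIF20A shares 132 exon bases with BRD8 and 74 with CDC23, and KIF4A shares 77 with PDZD11. KIF24 shares 144 with UBAP1, KIF7 shares 589 with TICRR and KIF2A shares 2446 with DIMT1. KIF5A shares 71 with DCTN2, and KIF9 shares 178 with KLHL18.

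Compared per length of annotated exons, the mitotic kinesins were among the most abundant kinesin mRNAs of the control cells. Of the 10 kinesin genes with the highest mean scaled reads per kb in shNT cells, 7 were mitotic, and in shYEATS2 cells 6 were. KIFC1 had 2250 ± 19.8 (SD, n = 2) and KIF5B 2242 ± 7.98 scaled reads per kb in shNT cells, a difference smaller than their spread. KIF20A followed at 2077 ± 328 and KIF2C at 2002 ± 176, which also did not differ beyond their spread. In shYEATS2 cells KIF5B stood at 2380 ± 49.1 and KIFC1 at 865 ± 34.6. The median level of the mitotic kinesins was 1224 scaled reads per kb in shNT and 505 in shYEATS2 cells. The exons are those of a later annotation than the counts, and the length joins the exons of all transcripts of a gene. These levels are therefore approximate, and genes with many annotated transcripts can come out too low. Without division by length, the mean scaled count in shNT cells was 13152 for KIF5B and 6818 for KIFC1.

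**Figure D4:**
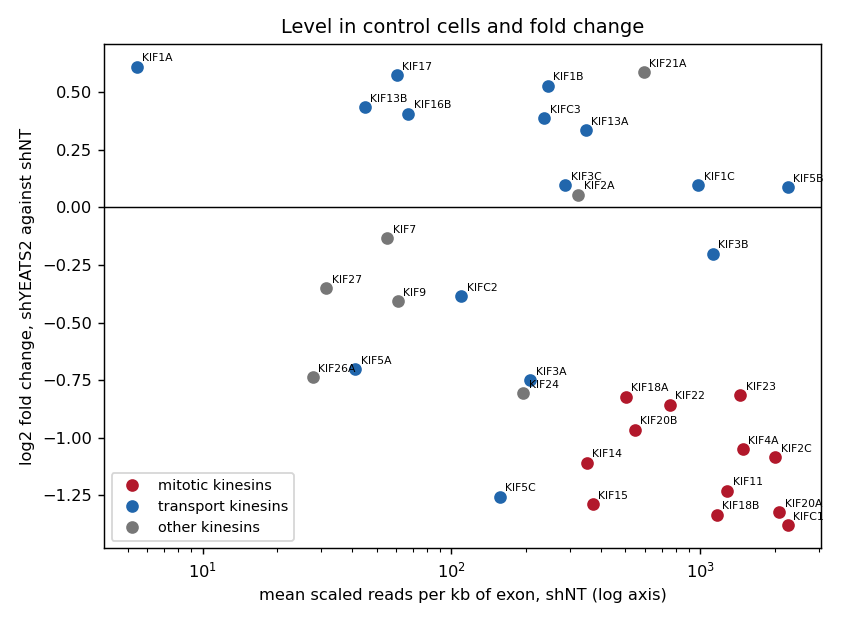
Mean scaled reads per kb of exon in shNT cells (horizontal log axis) against the log2 fold change of shYEATS2 (vertical axis) for 34 kinesin genes, red for mitotic, blue for transport and grey for other kinesins. The mitotic kinesins fill the lower right, KIFC1 and KIF5B share the highest level at 2250 and 2242 with fold changes of -1.38 and 0.09, and KIF1A is lowest.

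Most listed partners of the mitotic kinesins fell with them. Of 22 listed spindle and cytokinesis genes, 20 were called lower and 0 higher, against 12.5% and 12.9% of all genes. Their median log2 fold change was -1.18. The largest falls were in ECT2 (log2 fold change -2.11, FDR 0.000793), the exchange factor that centralspindlin recruits to start furrowing, and in CDCA8 (-1.83, FDR 0.000793), a subunit of the chromosomal passenger complex. ANLN, a scaffold of the contractile ring, changed by -1.60, and the spindle proteins NUSAP1 and DLGAP5 by -1.46 and -1.42. CENPE, a kinetochore kinesin that its symbol keeps out of the rule and that was picked after its value was seen, had 4405 and 4861 scaled reads in shNT and 2089 and 1997 in shYEATS2 libraries (log2 fold change -1.18, FDR 0.000920). The genes not called were NUMA1 at 0.36 (FDR 0.0157) and CKAP5 at -0.44 (FDR 0.0103), also named after their values were seen. At an unadjusted p under 0.05 in the same test, 21 were lower and 1 was higher. Of all 12676 genes, 3528 were lower and 3636 higher at that p. DESeq2 and exactTest each called 1 of the 22 higher.

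Of 22 regulators and markers of the late cell cycle, 13 were lower, 9 were not called and 0 were higher, against 12.5% and 12.9% of all genes called lower and higher. Their part in the kinesin values was not tested. The 22 genes had a median log2 fold change of -0.80, and by edgeR also 0 were higher at an unadjusted p under 0.05 and with DESeq2 or exactTest. CDC20, the activator of the anaphase-promoting complex, changed by -1.62 (FDR 0.000793), E2F2 by -1.62 (FDR 0.00446), the proliferation marker MKI67 by -1.51 (FDR 0.00114), TOP2A by -1.43 (FDR 0.000793) and CDK1 by -1.41 (FDR 0.00114). The MuvB and NF-Y subunits of the list, FOXM1 and MYBL2, which encodes B-MYB, were named after their values were seen. MYBL2 fell by -1.24 (FDR 0.00251) and FOXM1 by -1.01 (FDR 0.00105), and LIN9 (-0.80) and NFYB (-0.81) also fell. Of MuvB, LIN52 (-0.42, FDR 0.0253), RBBP4 (-0.24), LIN54 (-0.10) and LIN37 (-0.09) were not called. Of NF-Y, NFYC (-0.14) and NFYA (0.17) were not called. In single libraries the median log2 ratio of these 22 genes to the shNT mean was -0.84 and -0.98 in the shYEATS2 libraries. Of 14 tubulin genes, which encode the track itself, 6 were lower and 1 was higher, against 12.5% and 12.9% of all genes. The falls were in the abundant TUBA1B (-1.09), TUBA1C (-1.05), TUBB4B (-0.89) and TUBB (-0.82), in TUBG1 (-0.78) of the microtubule-nucleating ring and in TUBB6 (-0.68), the last named after its value was seen. The gene called higher was TUBG2 (0.58), also named after its value was seen, and 0 tubulins were called higher in edgeR without shNT replicate 1, shNT replicate 2 or shYEATS2 replicate 2.

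Of 19 kinesin light chains, adaptors and small GTPases in the table, 1 was lower (5.26%) and 5 were higher (26.3%), against 12.5% and 12.9% of all genes, with a median log2 fold change of 0.16. Both KD libraries lay above both controls in 11 of them and below in 6, against 39.7% and 39.8% of all genes. The lysosome-positioning subunits BLOC1S1 and BLOC1S2 went opposite ways (-0.76 and 0.66), and MADD (0.74), an adaptor of KIF1B, MAPK8IP3 (0.69), an adaptor of conventional kinesin, and the light chain KLC4 (0.63) rose. The remaining call was the light chain KLC2 (0.57), named after its value was seen. Of 24 dynein and dynactin genes, 2 were lower (8.33%) and 3 were higher (12.5%), shares near those of all genes (12.5% and 12.9%), with a median of 0.08. DYNC1I1, a neuronal intermediate chain of dynein, rose from 83.9 and 62.9 to 414 and 500 scaled reads (log2 fold change 2.63, FDR 0.000843), whereas its ubiquitous counterpart DYNC1I2 fell (-0.63, FDR 0.00290). The other calls were DCTN4 (0.77), NDEL1 (0.75) and DCTN2 (-0.49). These counts rested on both control libraries: without shNT replicate 1 or shNT replicate 2, 1 transport partner was higher in each case and 0 dynein and dynactin genes were lower.

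**Figure D5:**
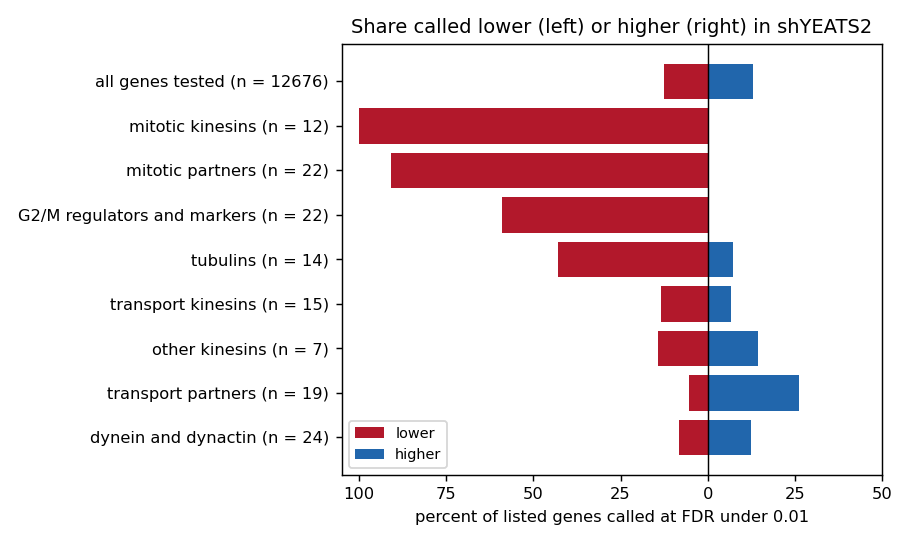
Percent of the genes of each list called lower (left, red) or higher (right, blue) in shYEATS2 at an FDR under 0.01, with the number of tested genes in brackets. All 12 mitotic kinesins and 20 of their 22 partners are lower, against 12.5% of all genes. Of the transport kinesins, 13.3% are lower and 6.67% higher, against 12.5% and 12.9% of all genes.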

How the data were processed

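Only RNA-seq of H1299 cells was analysed (2 shNT and 2 shYEATS2 libraries). The authors used the RNA-Seq unified mapper and hg19, ran HTSeq with default settings, and deposited raw counts without normalization. The submitters' processing notes also list TopHat2 2.0.10 and HTSeq 0.6.1p1. The gene annotation is not given in the sources used here. The authors also deposited log2 fold changes and p-values with FDR of their own comparison, which were not used. The ChIP-seq samples were not analysed here.

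A minimum of 10 reads in 2 or more libraries was met by all 12676 genes, which were tested with edgeR 4.0.16 in R 4.3.3 (glmQLFit and glmQLFTest, TMM scaling, no replicate block, Benjamini-Hochberg adjustment, FDR under 0.01). With 2 libraries per group log2 fold changes had a median standard error of 0.12, which limits the precision. Alternatives were DESeq2 1.42.0, edgeR's exactTest, DESeq2 size factors, total counts, upper quartile, each library left out, a mean count minimum of 100, an FDR under 0.05, no filter and a replicate block. The members and lists were chosen with earlier results of these data known, so no list was given a test.

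Values in every library were planned for the 12 mitotic kinesins, other members past the threshold and the 3 transport kinesins with highest mean count. Of each partner list, at most 5 genes were to be named, by size of change among those called. Outside that plan, values by library are also given for KIF2A, KIF5A, KIF3C, KIF17, KIF1A, KIF26A, KIFAP3, CENPE and DYNC1I1. Exon lengths and positions are from GENCODE v44lift37 (GRCh37), to which 98.3% of identifiers and all 35 members matched. Promoter windows were matched by symbol.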

Additional observations from a re-analysis of the deposited data

How the results depend on the processing

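All 12 mitotic kinesins were called lower under every alternative run, including each library left out, where the remaining library of a group was assumed to vary like the others. Their median was -0.98 with total counts and -1.19 to -1.02 with a library left out, and that of the other kinesins was -0.23 with total counts. Over all genes, exactTest called 2497 lower and 2596 higher, an FDR under 0.05 gave 3011 and 3093, total counts gave 1166 and 2363, and leaving out a library gave 850 to 2024 lower and 775 to 1971 higher. Of the transport kinesins, exactTest called 2 higher, total counts 3 higher, an FDR under 0.05 4 lower and 6 higher, and a library left out 1 to 3 lower and 0 to 1 higher. Of the other kinesins, 2 were lower with exactTest or an FDR under 0.05, and 0 to 1 lower and 0 to 1 higher with a library left out. DESeq2, exactTest, total counts and an FDR under 0.05 each called 1 mitotic partner higher. DESeq2, exactTest and an FDR under 0.05 each called 2 transport partners lower, and a library left out gave 0 to 1 lower and 1 to 5 higher. Dynein and dynactin genes called lower were 4 with DESeq2 or exactTest, 1 with total counts, 5 at an FDR under 0.05 and 0 to 3 with a library left out, which gave 1 to 3 higher. Tubulins called higher were 2 with DESeq2, exactTest, a mean count minimum of 100, total counts, upper quartile or an FDR under 0.05, and 0 to 1 with a library left out. The log2 fold change of KIF1A was -0.030 to 1.65 with a library left out, the former without shYEATS2 replicate 2. The cause of these shifts was not tested. With a replicate block, 2715 genes were lower and 2742 higher, with 4 transport kinesins higher, 2 other kinesins lower, 1 mitotic partner higher, 2 transport partners lower, 5 dynein genes lower and 2 tubulins higher. Across all genes, the deviations of same-numbered libraries from their group means correlated at 0.403. With only 2 pairs of libraries, and no pairing given by the labels, the numbers were not taken as a pairing in the main test. Crossed numbers were not fitted. With 2 libraries per group, differences near the median standard error of 0.12 were not detectable.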
